A study of Mus musculus with 4 samples.

Results

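The DNA replication machinery was followed as 44 named genes, chosen by symbol for their known roles in licensing origins and copying DNA. They comprised the 6 subunits of the MCM2-7 helicase, 6 factors that join or activate it, 9 genes of origin licensing, 8 subunits of DNA polymerases and primase, 6 genes of the sliding clamp and its loader, 5 genes of single-strand binding and Okazaki fragment maturation, and 4 genes of nucleotide supply. All 44 symbols were matched among the 37620 genes of the raw count table, and all 44 were among the 15462 genes that passed the low-expression filter of the study, so that no member was left out.

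Replication begins in G1, when the origin recognition complex, Cdc6 and Cdt1 load the ring-shaped MCM2-7 helicase onto DNA. In S phase the helicase is activated by Cdc45 and the GINS complex, and the polymerases copy both strands behind it, held by the PCNA clamp that replication factor C loads. Mouse embryonic stem cells (ESCs) are known for a short G1 phase and a large share of cells in S phase, and many replication genes are classical targets of the E2F transcription factors.

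RNA was sequenced from R1 mouse ESCs of the strain 129/Sv, either WT or Cripto KO. Cripto, the product of Tdgf1, is a membrane-anchored co-receptor of Nodal, and the study asked what its loss does as ESCs are converted into epiblast stem cells (EpiSCs), the primed pluripotent state. The serum/LIF libraries come from ESCs kept in serum with LIF, and the F/A libraries from cells seeded at low density in N2B27 with bFGF and Activin A at 20 ng per ml for 6 days. Each of the 4 conditions is 1 library, so no value carries a replicate error, and every comparison is between single cultures and was made without a test. A fit of culture and genotype as additive terms, which would take the difference between the genotypes' responses as error, was not made. Growth factors, basal medium, seeding density and time in culture all differ between serum/LIF and F/A and cannot be told apart. The study used 2 Cripto KO clones, and which of them was sequenced is not given in the sources used here.

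Raw counts on genes summed to between 15230856 and 17315442 per library. Tdgf1 had 18714 counts in WT and 945 in Cripto KO cells in serum/LIF, and 1572 and 86 in F/A, lower in the Cripto KO library of each culture. Only 3 of 18700 detected genes had odd counts in the F/A Cripto KO library, against 53.1% to 53.6% of detected genes in the other libraries, and its counts were therefore divided by 2 wherever counting error was computed. The summed level of 6 naive ESC markers was 3907 and 3534 cpm (counts scaled to library totals) in serum/LIF (WT, then Cripto KO) and 66.3 and 62.0 cpm in F/A, with Nr0b1 at 0 counts in both F/A libraries. That of 6 primed epiblast markers was 196 and 213 cpm in serum/LIF and 1420 and 789 cpm in F/A, all 6 above the detection limit of 3 counts (6 in F/A Cripto KO) in both F/A libraries. In F/A, markers of mesoderm summed to 49.0 cpm (WT) and 198 cpm (Cripto KO), those of primitive endoderm to 180 and 267 cpm, those of trophoblast to 172 and 206 cpm, and those of fibroblasts to 71.8 and 188 cpm. All 5 markers of each list were above the limit in both F/A libraries, and 5 of 6 for trophoblast, whose defining factor Elf5 had 2 and 0 counts. Hand1 is in both the trophoblast and the mesoderm list and had 196 counts in WT and 1730 in Cripto KO cells in F/A. The trophoblast marker Cdx2 had 104 and 674 counts in F/A, whereas Eomes had 1963 and 422. The higher trophoblast sum of Cripto KO thus rested on Hand1 and Cdx2. In serum/LIF these 4 sums ran from 1.79 to 97.0 cpm. Single markers did not all follow the sums. By normalized values in F/A, Cripto KO lay above WT for 4 of 5 mesoderm, 3 of 5 primitive endoderm and all 5 fibroblast markers. Tbx6 (52 and 22 counts), Sox7 (20 and 10) and Dab2 (609 and 590) lay below. Hand1 gave 1730 of the 3118 mesoderm counts in F/A Cripto KO. The primed marker Otx2 had 1023 counts in serum/LIF and 678 in F/A in Cripto KO cells. Whether the sums reflect a shift in cell types, and its part in the values below, was not tested. In bulk RNA, fewer cells in S phase and less RNA of these genes per cell cannot be told apart.

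In both genotypes the replication genes were expressed at lower levels after the switch to F/A. Together they took 0.859% of all counts in WT and 0.836% in Cripto KO cells in serum/LIF, against 0.412% and 0.478% in F/A, a share 2.08 times smaller in WT and 1.75 times smaller in Cripto KO. In 40 of 44 members both F/A libraries lay below both serum/LIF libraries, an order that 42.5% of all genes showed, and the exceptions were Orc3, Pold2, Rfc3 and Rrm1. No member had both F/A libraries above both serum/LIF libraries, an order seen in 36.8% of all genes. Log2 ratios were computed from the quantile-normalized values of the study, and a gene was called when its value differed by at least 2-fold. In the WT transition, F/A against serum/LIF, 27 of 44 members were called lower, where 20.9% of all genes were, and 0 of 44 were called higher, where 22.1% of all genes were. The median log2 ratio of the members was -1.14, and that of all genes -0.07. In the Cripto KO transition 16 members were called lower, against 19.4% of all genes, and 0 higher, against 19.9%, with a median log2 ratio of -0.77 beside -0.07 over all genes. All 16 of these were among the 27 called in WT. Set against the median of all genes of like transcript length (longest annotated transcript), 18 members were called lower in WT, beside 18.2% of all genes, and 10 in Cripto KO, beside 18.4%, so that the Cripto KO share of members, 10 of 44, was near that of all genes. At a threshold of 1.5-fold 39 were called lower in WT, beside 32.5% of all genes, and 28 in Cripto KO, beside 29.3%.

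Counting error was small for most of these genes. A 95% Clopper-Pearson interval for each ratio was computed from raw counts scaled by library totals. The ratios themselves use quantile-normalized values. In the WT transition the ratio lay inside its interval for 42 of 44 members and outside for Pcna and Lig1. In the other comparisons all 44 lay inside. The interval covers counting error only, not the spread between cultures. For the WT transition the interval lay below 1 for 42 members, above 1 for Orc3, and held 1 for Orc4. For the Cripto KO transition it lay below 1 for 40 members, above 1 for Rfc3 and Rrm1, and held 1 for Orc3 and Pold2. Intervals were not computed over all genes, so these counts and those given below cannot be set against a background.

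**Figure D1:**
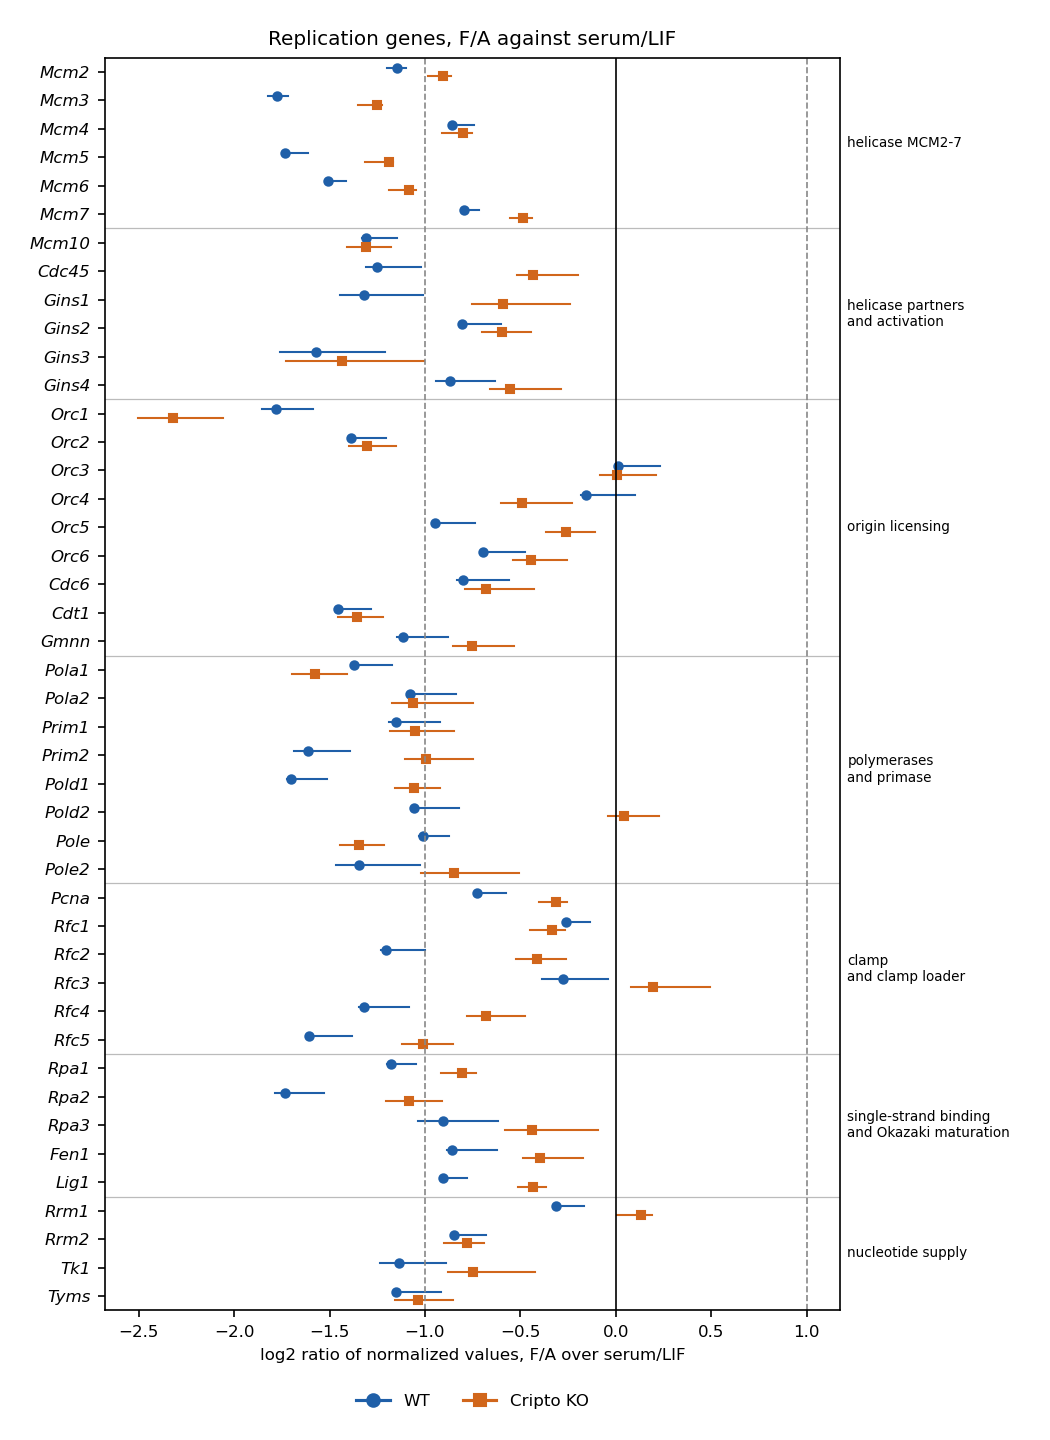
Log2 ratio of F/A over serum/LIF for each of the 44 replication genes (vertical axis, grouped by role), with WT as blue circles and Cripto KO as orange squares. Horizontal lines are 95% counting intervals from raw counts scaled by library totals and dashed lines mark 2-fold. The WT points of Pcna and Lig1 lie outside their lines. Nearly all points sit left of 0, and the Cripto KO point lies right of the WT point for 37 of the 44 genes.

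E2F factors bind short words of the form TTTCCCGC, TTTCGCGC, TTTGCCGC or TTTGGCGC, and the promoters of the members were searched for these 4 words on both strands, counting overlapping matches. Promoter windows, 250 bases before to 50 after the start of a gene, came from RefSeq (GRCm38.p6) and were at hand for 36 of the 44 members, in 44 windows. A word was found in 14 of the 44 windows, 31.8%, against 2.26% of all 32851 windows and 3.71% of the 13169 windows of genes kept by the filter. The share was 32.0% in 25 windows of other replication factors, 12.5% in 8 windows of histone chaperones, 0% in 12 windows of other nucleotide synthesis genes and 5.26% in 19 windows of mitosis genes. The letters CCAAT (or ATTGG), searched in the same way, were in 56.8% of member windows, 37.4% of all windows and 78.9% of those of mitosis genes. The 14 members with an E2F word had a median log2 ratio of -1.42 in WT and -1.07 in Cripto KO, and the 22 with a window but no word -1.11 and -0.71. The genes with a word included Orc3 and Rfc3, whose values are given below as among those that differed least. A match describes letters in a window and says nothing of binding in these cells. The 250 bases upstream of Orc1, Mcm5, Gins3 and Mcm6 are printed 5′ to 3′ on the strand of the gene because these 4 had the lowest log2 ratios in WT among members with a single window and a word upstream of the start. Capitals mark the E2F words or their reverse complements.
Orc1, chr4:108579204-108579453, plus strand: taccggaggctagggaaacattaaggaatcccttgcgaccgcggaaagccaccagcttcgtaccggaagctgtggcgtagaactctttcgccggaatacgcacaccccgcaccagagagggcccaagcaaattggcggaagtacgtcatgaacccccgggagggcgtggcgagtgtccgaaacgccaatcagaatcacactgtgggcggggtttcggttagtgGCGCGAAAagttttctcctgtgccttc
Mcm5, chr8:75109259-75109508, plus strand: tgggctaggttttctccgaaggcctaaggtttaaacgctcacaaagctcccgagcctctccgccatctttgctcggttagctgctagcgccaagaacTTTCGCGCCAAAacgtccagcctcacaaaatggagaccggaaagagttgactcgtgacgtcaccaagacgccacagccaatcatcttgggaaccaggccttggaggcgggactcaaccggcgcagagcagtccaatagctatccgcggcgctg
Gins3, chr8:95633309-95633558, plus strand: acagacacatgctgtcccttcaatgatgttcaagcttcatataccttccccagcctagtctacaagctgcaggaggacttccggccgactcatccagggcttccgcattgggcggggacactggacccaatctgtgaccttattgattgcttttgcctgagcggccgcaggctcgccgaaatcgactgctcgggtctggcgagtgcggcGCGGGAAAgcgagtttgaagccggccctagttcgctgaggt
Mcm6, chr1:128359706-128359955, minus strand: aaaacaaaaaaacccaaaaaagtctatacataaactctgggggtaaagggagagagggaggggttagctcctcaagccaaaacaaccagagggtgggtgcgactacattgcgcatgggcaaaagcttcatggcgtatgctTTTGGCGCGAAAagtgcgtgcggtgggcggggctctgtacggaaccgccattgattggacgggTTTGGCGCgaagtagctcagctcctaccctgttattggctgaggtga
In Orc1 the word begins at -27 from the start of the gene, in Gins3 at -41, in Mcm5 overlapping words of both strands begin at -153 and -149, and in Mcm6 overlapping words begin at -110 and -106 with a further word at -47.

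The MCM2-7 helicase, the motor that unwinds DNA, was lower in F/A in all 6 of its subunits, 4 of them called in WT and 3 in Cripto KO. Mcm3 was counted 13922 times in WT and 12488 times in Cripto KO cells in serum/LIF, and 3592 and 4952 times in F/A. Its F/A to serum/LIF ratio was 0.292 in WT (95% counting interval 0.283 to 0.304) and 0.420 in Cripto KO (0.392 to 0.428), so the WT F/A library was the lowest of the 4. Mcm5 showed the same order, with 9965 and 9004 counts in serum/LIF (WT, then Cripto KO, an order kept below) and 2751 and 3692 in F/A, and ratios of 0.301 (0.301 to 0.327) and 0.438 (0.403 to 0.445). Mcm6 had 10934 and 9139 counts in serum/LIF and 3471 and 4080 in F/A, with ratios of 0.352 (0.347 to 0.375) and 0.473 (0.439 to 0.484). Mcm2, the subunit that also binds histones, had 11504 and 11212 counts in serum/LIF and 4568 and 5724 in F/A. It was called in WT, at 0.452 (0.436 to 0.467), and was at 0.534 (0.506 to 0.550) in Cripto KO. Mcm4 and Mcm7, which with Mcm6 form the catalytic core of the ring, were not called in either genotype. Mcm4 had 6499 and 6116 counts in serum/LIF and 3271 and 3324 in F/A, with log2 ratios of -0.86 and -0.80. Mcm7, which overlaps Cops6 and Ap4m1 on the opposite strand, had 10233 and 9620 counts in serum/LIF and 5303 and 6598 in F/A, with log2 ratios of -0.79 and -0.48. Every one of the 6 subunits thus had its 2 F/A values below its serum/LIF values, at log2 ratios from -1.78 to -0.79 in WT and from -1.25 to -0.48 in Cripto KO.

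The partners that turn the loaded ring into a working helicase were called lower in 4 of 6 cases in WT and 2 of 6 in Cripto KO. The shares of all genes called lower were 20.9% and 19.4%. Mcm10, needed for the helicase to start unwinding, had 3663 and 3705 counts in serum/LIF and 1366 and 1464 in F/A, and its ratio was 0.404 in each genotype (intervals 0.398 to 0.451 and 0.377 to 0.442). Cdc45, a subunit of the active helicase, had 1447 and 1176 counts in serum/LIF and 568 and 888 in F/A. Its ratio was 0.420 in WT (0.404 to 0.492) and 0.742 in Cripto KO (0.698 to 0.871), and it was called in WT alone. The 4 GINS subunits, which tether Cdc45 to the ring, were spread. Gins3 had 463 and 413 counts in serum/LIF and 146 and 156 in F/A, and was called in both genotypes at 0.336 (0.296 to 0.433) and 0.369 (0.302 to 0.498). Gins1 had 641 and 495 counts in serum/LIF and 241 and 340 in F/A, with ratios of 0.401 (0.367 to 0.496) and 0.663 (0.593 to 0.846), so that the call was made in WT. Gins2 and Gins4 were not called, with log2 ratios of -0.81 and -0.87 in WT and of -0.59 and -0.55 in Cripto KO. Their counts were 2036 and 2045 in serum/LIF and 1096 and 1332 in F/A for Gins2, and 1004 and 908, then 512 and 634, for Gins4.

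Origin licensing spanned the widest range of log2 ratios of the 7 roles in both transitions, though not in the comparison of genotypes within F/A, where polymerases and primase did. Within the origin recognition complex (ORC), which marks the sites where replication can start, the log2 ratios ran from -1.78 for Orc1 to 0.01 for Orc3 in WT, and from -2.32 to 0.01 for the same genes in Cripto KO. Orc1 (chromosome 4, 108252028 to 108288633 on NCBIM37), the subunit whose amount changes through the cell cycle, had 2175 and 1862 counts in serum/LIF and 581 and 372 in F/A. It had the lowest ratio of all members in both transitions, level with Mcm3 in WT, at 0.291 in WT (0.277 to 0.333) and 0.200 in Cripto KO (0.177 to 0.240), and was the member for which Cripto KO lay furthest below WT in the comparison of transitions. The lincRNA Gm12743 overlaps Orc1 on the opposite strand and had 502 and 484 counts in serum/LIF and 159 and 104 in F/A, and reads of the pair cannot be told apart if strand was not used in counting. Orc2, a core subunit, was called in both genotypes, with 3272 and 3234 counts in serum/LIF and 1170 and 1294 in F/A, at ratios of 0.382 (0.380 to 0.435) and 0.405 (0.379 to 0.450). Orc3, by contrast, had 1253 and 1114 counts in serum/LIF and 1196 and 1128 in F/A, with overlapping values in the cultures. Orc4 had 884 and 878 counts in serum/LIF and 755 and 638 in F/A, at log2 ratios of -0.15 and -0.49. Orc5 had 1944 and 1758, then 950 and 1444, at -0.95 and -0.26, and Orc6, the least conserved subunit, 1618 and 1474, then 945 and 1084, at -0.70 and -0.44. None of these 4 subunits was called.

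Cdc6 and Cdt1, the loaders that bring the MCM ring to ORC, differed from each other. Cdc6 had 1246 and 1026 counts in serum/LIF and 676 and 652 in F/A and was not called, at log2 ratios of -0.80 and -0.68. Cdt1 was called in both genotypes, with 3502 and 3714 counts in serum/LIF and 1186 and 1422 in F/A and ratios of 0.364 (0.360 to 0.411) and 0.391 (0.365 to 0.429). Its inhibitor geminin, Gmnn, which blocks re-licensing after S phase begins, had 1550 and 1394 counts in serum/LIF and 676 and 834 in F/A. Gmnn was called in WT at 0.462 (0.452 to 0.543) and lay at 0.594 (0.553 to 0.690) in Cripto KO. The ratio of Cdt1 to Gmnn counts was 2.26 (95% counting interval 2.13 to 2.40) in WT and 2.66 (2.5 to 2.84) in Cripto KO cells in serum/LIF, and 1.75 (1.59 to 1.93) and 1.71 (1.51 to 1.93) in F/A. The F/A intervals overlapped each other and lay below both serum/LIF intervals.

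All 8 polymerase and primase genes among the members were called lower in WT and 5 in Cripto KO, where 20.9% and 19.4% of all genes were. Pold3, Pold4, Pole3 and Pole4, further subunits of polymerases delta and epsilon, were not members and were not called in either transition. Their log2 ratios were -0.43, -0.85, -0.33 and -0.95 in WT, and -0.32, 0.34, 0.02 and -0.38 in Cripto KO. For Pola2, Pold2 and Pole the WT call lay close to 2-fold and was lost when counts were scaled by library totals, TMM or DESeq2 size factors. DNA polymerase alpha and its primase lay the primer on each new strand. Pola1, the catalytic subunit, had 2777 and 2782 counts in serum/LIF and 1007 and 918 in F/A, at ratios of 0.386 (0.383 to 0.443) and 0.336 (0.308 to 0.376). Pola2, its accessory subunit (chromosome 19, 5940543 to 5964206 on NCBIM37), stood apart through its genotype difference, with 1669 and 923 counts in serum/LIF and 753 and 460 in F/A. The Cripto KO library was lower in each culture, while the F/A to serum/LIF ratio was alike, 0.474 in WT (0.470 to 0.559) and 0.479 in Cripto KO (0.444 to 0.595). The call of Pola2 in Cripto KO was also lost under the 3 other scalings. Prim1, the catalytic primase subunit, had 1568 and 1486 counts in serum/LIF and 664 and 712 in F/A, and was called in both genotypes at 0.450 (0.439 to 0.527) and 0.482 (0.440 to 0.556), the latter short of 2-fold with TMM. Prim2, the large primase subunit, had 1635 and 1302, then 495 and 664, at 0.327 (0.311 to 0.381) and 0.503 (0.466 to 0.595), the latter just short of the call.

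The polymerases of the leading and lagging strands were also lower in WT. Pold1, the catalytic subunit of DNA polymerase delta, had 3428 and 3078 counts in serum/LIF and 982 and 1452 in F/A, and was called in both genotypes at 0.308 (0.303 to 0.350) and 0.480 (0.449 to 0.529). Pold2, an accessory subunit of the same enzyme (chromosome 11, 5772183 to 5778295 on NCBIM37), departed from it in Cripto KO cells. It had 1652 and 1356 counts in serum/LIF and 754 and 1400 in F/A, and its ratio was 0.480 in WT (0.475 to 0.566) and 1.03 in Cripto KO (0.972 to 1.17), so that the WT F/A library alone was low. Pole, the catalytic subunit of DNA polymerase epsilon, had 4276 and 3887 counts in serum/LIF and 1946 and 1496 in F/A, at 0.496 (0.490 to 0.546) and 0.393 (0.367 to 0.430), with the Cripto KO library lowest. Pole2, its accessory subunit, had 636 and 578, then 236 and 330, at 0.393 (0.362 to 0.491) and 0.556 (0.493 to 0.702), and was called in WT.

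The clamp and its loader were called lower in 3 of 6 cases in WT and 1 of 6 in Cripto KO. The shares of all genes were 20.9% and 19.4%, so that the Cripto KO share, 16.7%, was near that of all genes. Pcna, the ring that holds polymerases on DNA, had 5603 and 5397 counts in serum/LIF and 3162 and 4156 in F/A and was not called, at log2 ratios of -0.72 and -0.31. A pseudogene copy, Pcna-ps2, had 861 and 849 counts in serum/LIF and 583 and 708 in F/A, and reads shared by the pair cannot be told apart. Replication factor C, the loader that opens the clamp, showed a split between subunits. Rfc5 was called in both genotypes with 2543 and 2314 counts in serum/LIF and 792 and 1130 in F/A, at 0.328 (0.327 to 0.384) and 0.497 (0.459 to 0.553), and its Cripto KO call was lost under the 3 other scalings. Rfc4 had 1693 and 1496, then 642 and 938, at 0.401 (0.393 to 0.472) and 0.625 (0.583 to 0.719), and Rfc2 had 2097 and 1792, then 852 and 1322, at 0.433 (0.426 to 0.5) and 0.751 (0.696 to 0.834). Both were called in WT only. Rfc1, the large subunit, had 3646 and 3575 counts in serum/LIF and 2782 and 2698 in F/A, at log2 ratios of -0.26 and -0.33. Rfc3 had 631 and 526, then 479 and 622, at -0.28 and 0.19, and in Cripto KO cells its F/A value was the higher of the pair.

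Of the genes that protect single strands and join Okazaki fragments, 2 of 5 were called lower in WT and 1 in Cripto KO. The shares of all genes were 20.9% and 19.4%, so that the Cripto KO share, 20.0%, was near that of all genes. Rpa2, the middle subunit of replication protein A, had 2299 and 2080 counts in serum/LIF and 641 and 968 in F/A, and was called in both genotypes at 0.301 (0.290 to 0.346) and 0.471 (0.435 to 0.531). Rpa1, the large subunit that contacts DNA, had 4740 and 4497, then 1914 and 2460, at 0.442 (0.435 to 0.484) and 0.572 (0.530 to 0.602). Rpa3, the small subunit, had 562 and 505, then 279 and 388, at log2 ratios of -0.90 and -0.44. All 3 subunits had their lowest value in F/A WT. Fen1, the nuclease that trims Okazaki fragments, had 1365 and 1188 counts in serum/LIF and 712 and 916 in F/A, at -0.86 and -0.40 on the log2 scale. Lig1, the ligase that seals them, had 7010 and 5788, then 3453 and 4134, at -0.91 and -0.44.

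The 4 genes of nucleotide supply gave 2 calls in WT and 1 in Cripto KO. The shares of all genes called lower were 20.9% and 19.4%, so that the Cripto KO share, 25.0%, was near that of all genes. Tyms, thymidylate synthase, was called in both genotypes with 1833 and 1786 counts in serum/LIF and 786 and 862 in F/A, at 0.450 (0.448 to 0.530) and 0.487 (0.448 to 0.554), and its Cripto KO call was lost with TMM or DESeq2 size factors. Tk1, the thymidine kinase of the salvage pathway, had 942 and 690, then 397 and 426, at 0.454 (0.425 to 0.539) and 0.595 (0.544 to 0.745). The 2 subunits of ribonucleotide reductase, which makes deoxynucleotides, did not move alike. Rrm2, the subunit that limits the enzyme and is made in S phase, had 3200 and 3451 counts in serum/LIF and 1656 and 1926 in F/A, at log2 ratios of -0.85 and -0.78. Rrm1 had 3203 and 2715, then 2383 and 2814, at -0.32 and 0.13. The ratio of Rrm2 to Rrm1 counts, a pair chosen after its values were seen, was 0.999 (0.951 to 1.05) in WT and 1.27 (1.21 to 1.34) in Cripto KO cells in serum/LIF, and 0.695 (0.652 to 0.740) and 0.684 (0.630 to 0.743) in F/A. As with Cdt1 and Gmnn, the F/A ratios overlapped each other and lay below both serum/LIF ratios.

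**Figure D2:**
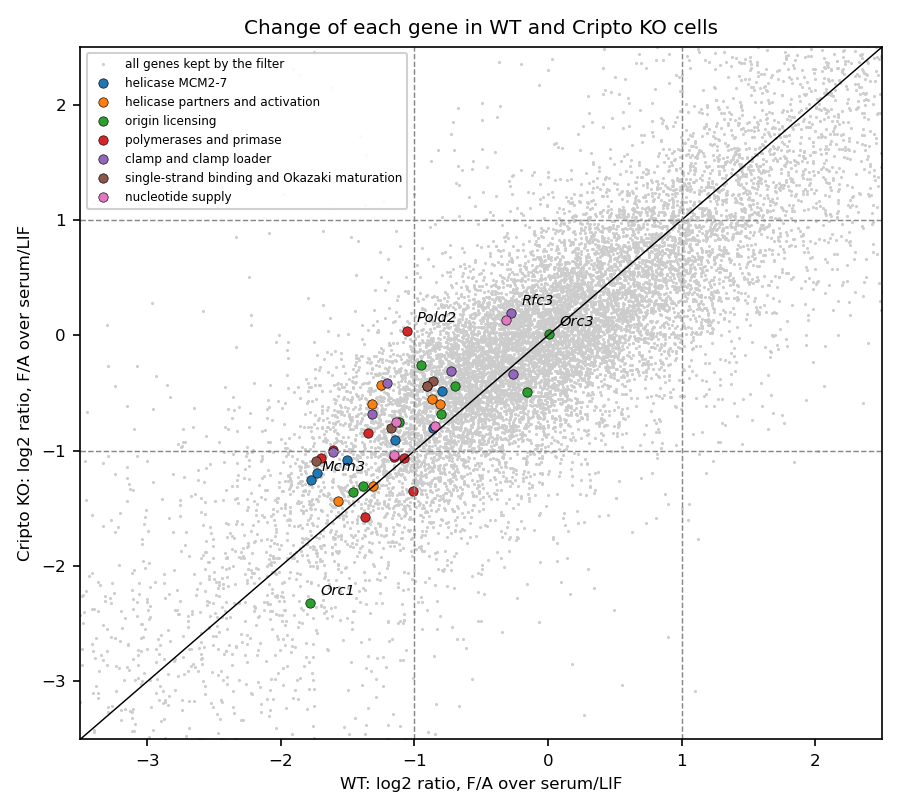
Log2 ratio of F/A over serum/LIF in WT (horizontal axis) against Cripto KO cells (vertical axis) for all genes kept by the filter (grey, genes outside the axes not drawn) and the 44 replication genes (coloured by role). The solid line marks equal ratios and dashed lines mark 2-fold. Most replication genes lie left of and above the line of equal ratios within the lower left quadrant, Orc1 lies below it, and Pold2 is the furthest above it.

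The transitions of WT and Cripto KO cells were compared directly as the difference of their log2 ratios, Cripto KO minus WT. It was above 0 for 37 of 44 members, with a median of 0.37 against 0.00 for all genes. It reached 2-fold for 1 member, Pold2 at 1.10, where 7.69% of all genes reached 2-fold in that direction, and for 0 members in the other direction, where 9.38% did. At 1.5-fold 10 members were above the threshold, beside 17.9% of all genes. Cdc45 (0.82), Rfc2 (0.79), Gins1 (0.73) and Orc5 (0.69) followed Pold2, and Orc1 (-0.54), Orc4 (-0.34) and Pole (-0.34) were the lowest. By role the median difference was 0.53 for the clamp and its loader, 0.46 for single-strand binding and Okazaki maturation, and 0.37 for MCM2-7. It was 0.30 for polymerases and primase, 0.26 for the helicase partners, 0.25 for nucleotide supply and 0.10 for origin licensing. Of 29 other replication factors, treated below, 15 lay above 0, with a median of 0.03. Among them 2 reached 2-fold higher, Rnaseh2c at 1.25 and Pold4 at 1.19. The median was -0.05 for histone chaperones and 0.17 for other nucleotide synthesis genes. It was 0.06 for the E2F list and 0.08 for mitosis genes. The 11 members called in WT and not in Cripto KO were Mcm2, Cdc45, Gins1, Gmnn, Prim2, Pold2, Pole2, Rfc2, Rfc4, Rpa1 and Tk1, and apart from Pold2 their ratios in Cripto KO lay between 0.503 and 0.751.

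Among F/A cells, Cripto KO values were above WT values for 36 of 44 members, with a median log2 ratio of 0.27 against 0.00 for all genes. No member was called, whereas 4.59% of all genes were called higher and 5.69% lower. At 1.5-fold 4 members were higher, beside 11.9% of all genes, and 2 lower, beside 14.3%. The counting interval lay above 1 for 28 members, below 1 for 5 and held 1 for 11, with no share over all genes computed. In 33 members the order was F/A WT below F/A Cripto KO, with both below both serum/LIF libraries, an order found in 22.1% of all genes. In 7 members F/A Cripto KO was the lowest library with F/A WT next, against 19.2% of all genes. The largest ratios of Cripto KO over WT in F/A were those of Pold2 at 1.84 (1.62 to 1.99), Rfc2 at 1.54 (1.35 to 1.66) and Cdc45 at 1.51 (1.33 to 1.72). The smallest were those of Pola2 at 0.592 (0.508 to 0.686), Orc1 at 0.613 (0.522 to 0.732) and Pole at 0.757 (0.683 to 0.810). All 6 MCM2-7 subunits lay above 1 (log2 ratios of 0.03 to 0.45), though Mcm4 fell on the other side of 1 when counts were scaled by library totals or DESeq2 size factors. All 5 genes of single-strand binding and Okazaki maturation also lay above 1, at 0.26 to 0.56 on the log2 scale. Of the 29 other replication factors 14 lay above 1, with a median log2 ratio of -0.02.

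In serum/LIF the genotypes were closer. Cripto KO values lay below WT values for 34 of 44 members with a median log2 ratio of -0.08 against 0.00 for all genes, and 0 members were called, where 2.75% of all genes were called lower and 2.86% higher. At 1.5-fold 1 member, Pola2, was lower, beside 7.08% of all genes. The sign turned for Mcm4, Mcm7, Prim1, Pcna and Tyms under each of the 3 other scalings. The interval lay below 1 for 15 members, above 1 for 7 and held 1 for 22, again with no share over all genes computed. Pola2 had the smallest ratio, 0.586 (0.543 to 0.639), followed by Tk1 at 0.777 (0.706 to 0.861) and Gins1 at 0.831 (0.730 to 0.926). The largest were those of Rrm2 at 1.13 (1.09 to 1.21), Cdt1 at 1.11 (1.08 to 1.18) and Mcm10 at 1.06 (1.03 to 1.13). Pola2 was thus the lowest member in Cripto KO in both cultures, by -0.77 on the log2 scale in serum/LIF and -0.76 in F/A. Of its annotated neighbours, chosen after its values were seen, Dpf2 lay at -0.09 and 0.43 and Capn1 at 0.20 and 0.20. Syvn1, beyond Capn1, lay at 0.18 and -0.37. Topbp1, of the other replication factors treated below, was also lower in Cripto KO in both cultures, at -0.67 and -0.93. The comparisons within a culture and within a genotype share libraries and are not independent of each other.

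**Figure D3:**
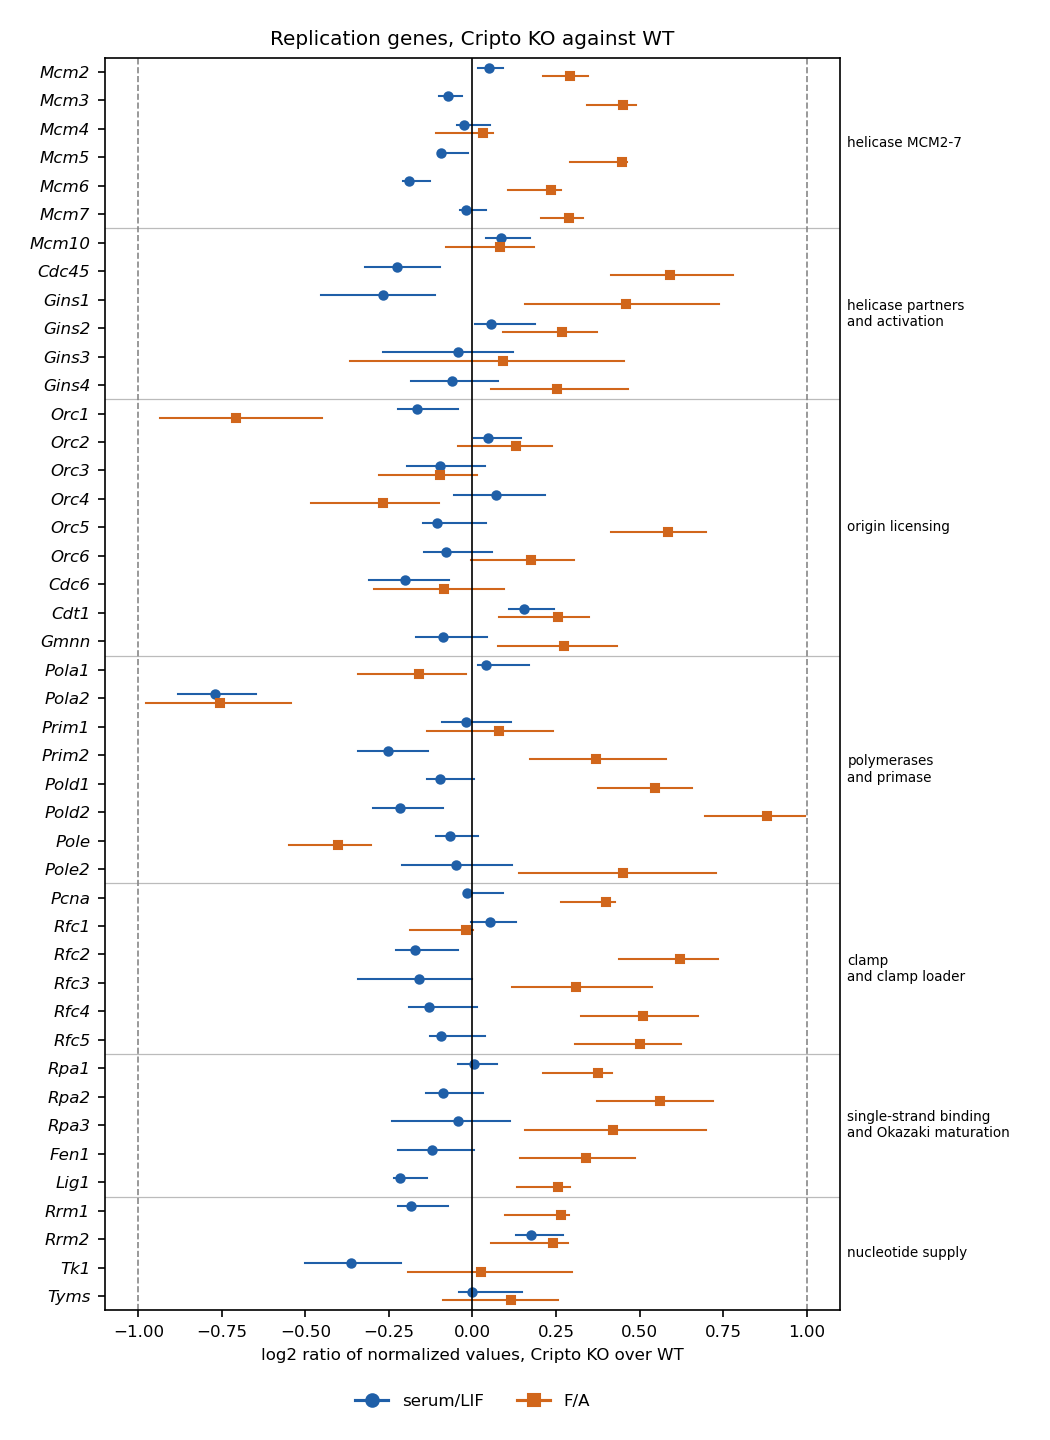
Log2 ratio of Cripto KO over WT for each of the 44 replication genes, in serum/LIF (blue circles) and F/A (orange squares), with 95% counting intervals from raw counts scaled by library totals as horizontal lines and 2-fold as dashed lines. The F/A points sit mostly right of 0, 36 of 44, the serum/LIF points lie close to 0, and Pola2 is low in both.

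The difference between genotypes moved with transcript length over the whole transcriptome and was also larger among the shorter replication genes. Among 9659 genes with a mean normalized value over 200, ranked by their longest annotated transcript, the median difference of the transitions ran from 0.46 in the shortest eighth to -0.48 in the longest. The 22 shorter members had a median difference of 0.46 and the 22 longer members 0.12. Their WT ratios were alike, at -1.09 and -1.15 on the log2 scale, whereas the Cripto KO ratios were -0.57 and -1.02. Over the 9659 genes, by contrast, the WT median ran from -0.68 in the shortest eighth to 0.64 in the longest. The median of the Cripto KO transition ran from -0.21 to 0.14. The 4 members with the lowest differences, Orc1, Orc4, Pole and Pola1, have longest transcripts of 4100, 4066, 7163 and 5346 nucleotides, against 2976.5 for the median member. Length did not order the members throughout, since Mcm6 (4355 nucleotides) and Rpa1 (5077 nucleotides) had differences of 0.43 and 0.37. When each log2 ratio was taken relative to the running median of genes of like length, the median difference of the members was 0.27 (median transcript length) or 0.24 (longest), no member reached 2-fold, beside 7.18% or 6.52% of all genes in the higher direction, and the median ratio in F/A was 0.18 by either length. The median of the WT transition was then -0.93 or -0.92 and that of the Cripto KO transition -0.65 or -0.67.

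**Figure D4:**
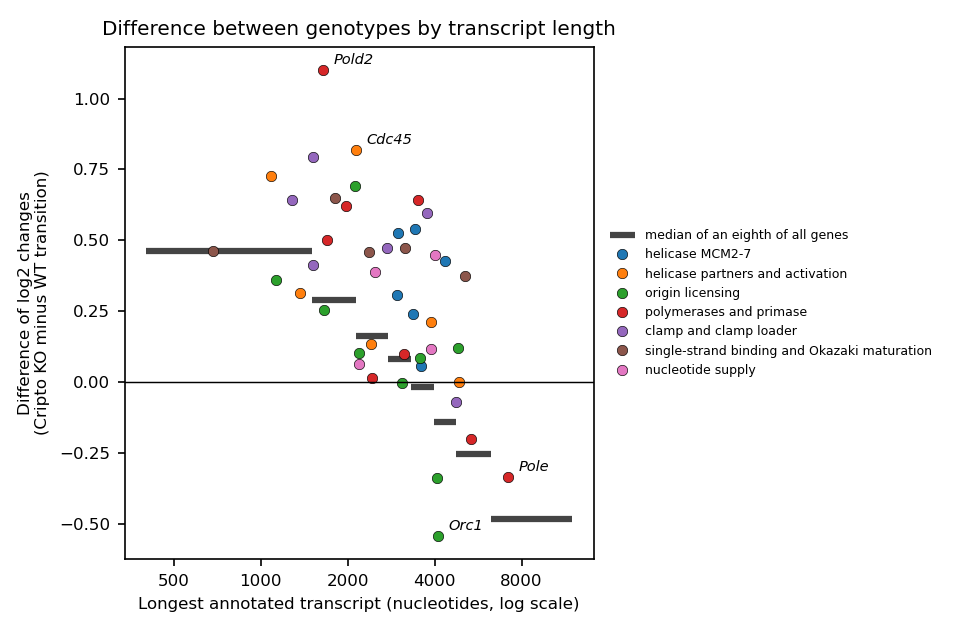
Difference of the log2 ratios of the transitions, Cripto KO minus WT, against the longest annotated transcript of each gene in nucleotides (log axis) for the 44 replication genes, coloured by role. Grey bars give the median of each eighth of 9659 genes (the outermost bars are shortened to the axis), which falls from 0.46 to -0.48, and most members lie above the bar of their length.

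Levels of subunits of a complex were compared as normalized values per kilobase of median transcript length, since longer transcripts collect more reads. The order depended on which annotated transcript was used. Mcm4 was the lowest MCM2-7 subunit in both serum/LIF libraries and in F/A Cripto KO, and Mcm5 in F/A WT, with the median or the longest transcript alike. Gins3 was the lowest GINS subunit and Rfc3 the lowest RFC subunit in all 4 libraries with either length. In WT serum/LIF the level of the highest subunit exceeded that of the lowest 5.94 times for MCM2-7, 5.39 times for GINS, 4.51 times for RPA, 3.61 times for RFC, 3.11 times for ORC and 1.88 times for polymerase alpha with primase. In the RFC complex this span per kilobase was 1.79 in WT and 1.64 in Cripto KO cells under F/A, against 3.78 in Cripto KO serum/LIF, and in GINS it was 8.70 and 9.82 in F/A against 5.47. With either length the subunits of RFC thus spanned a smaller range of levels in F/A than in serum/LIF, and those of GINS a larger one.

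Other genes that act at the fork also lay mostly below 0. Of 29 other replication factors, 27 were below 0 in WT and 24 in Cripto KO, with medians of -0.64 and -0.51. In WT 5 were called lower and 1 higher, and in Cripto KO 5 lower and 0 higher. The share called lower was 17.2% in each transition, no more than the 20.9% and 19.4% of all genes. Chtf18, of an alternative clamp loader, had 1693 and 1569 counts in serum/LIF and 452 and 470 in F/A, at log2 ratios of -1.80 and -1.76. Cdc7, the kinase that fires origins, was at -1.38 and -1.63, and Ticrr, which helps load Cdc45, at -1.28 and -1.72. Tipin, of the fork protection complex, was called in WT, at -1.16, and lay at -0.73 in Cripto KO. Timeless, its partner, was called in Cripto KO, at -1.24, and lay just short of the call in WT, at -0.998. Mcm9, a helicase of recombination, was the single call in the other direction (named after its values were seen), at 1.12 in WT, from 125 to 245 counts. Its log2 ratio in Cripto KO was 0.36. Of 9 histone chaperones 2 were called lower in each genotype, Asf1b (-2.60 and -1.93) and Tonsl (-1.20 and -1.25), a share of 22.2% that was near that of all genes, and the medians were -0.56 and -0.43. Asf1b had 778 and 684 counts in serum/LIF and 121 and 182 in F/A, lower than any of the 44 members in WT on the log2 scale.

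Of 11 other genes of nucleotide synthesis, 4 were called lower in WT (36.4%) and 2 in Cripto KO (18.2%), at medians of -0.88 and -0.42. Dtymk, thymidylate kinase, had 6399 and 5263 counts in serum/LIF and 1311 and 1824 in F/A (-2.18 and -1.46), and Shmt1, which feeds thymidylate synthesis, was at -1.63 and -1.52. Dut, the dUTPase, and Dctd, dCMP deaminase, were called in WT at -1.34 and -1.07. In Cripto KO they lay at -0.61 and -0.46. Among 13 E2F factors, their partners and pocket proteins, 3 were called lower (23.1%) and 2 higher (15.4%) in each genotype, where 20.9% and 19.4% of all genes were called lower and 22.1% and 19.9% higher in WT and Cripto KO. E2f1 and E2f2, activators of S phase genes, were lower at -1.37 and -2.38 in WT and -1.20 and -1.72 in Cripto KO, as was the pocket protein Rbl2 at -1.55 and -2.05. E2f5 and E2f6, repressors of the family, were higher at 1.23 and 1.11 in WT and 1.29 and 1.55 in Cripto KO. The other E2F genes were not called and lay on both sides of 0. E2f3 (0.77 in WT and 0.38 in Cripto KO) and E2f7 (0.57 and 0.37) were higher. E2f4 (-0.75 and -0.58) and E2f8 (-0.46 and -0.64) were lower. E2f2 had 334 and 248 counts in serum/LIF and 58 and 76 in F/A, and E2f6 466 and 426, then 935 and 1290. Of 23 mitosis genes, 4 were called lower in WT (17.4%) and 5 in Cripto KO (21.7%), also near the shares of all genes, with medians of -0.69 and -0.54 and 0 called higher. Birc5 (-1.51 and -1.11) and Bub1b (-1.21 and -1.18) were called in both, and Mki67, a proliferation marker named after its values were seen, had 5645 and 6194 counts in serum/LIF and 6516 and 4770 in F/A. The replication members thus had a lower median than each of these 5 lists in both transitions, a difference that was not tested. It depends on how genes were sorted into lists, and the sorting was made with earlier results of these data known. Pold3, Pold4, Pole3 and Pole4, for example, were among the other replication factors.

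**Figure D5:**
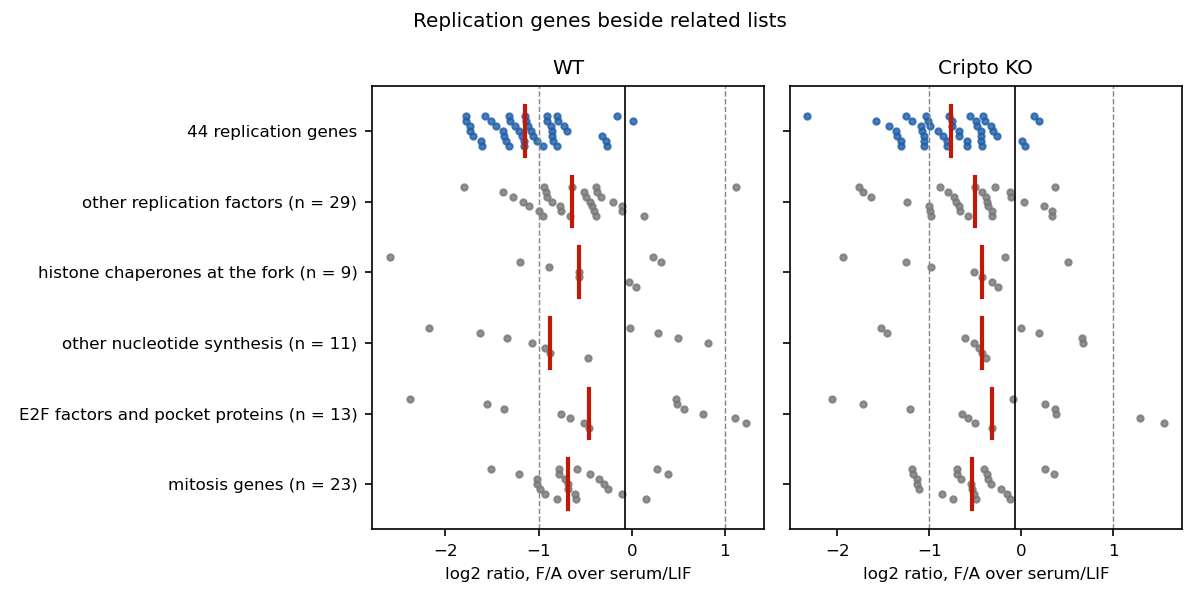
Log2 ratio of F/A over serum/LIF of the genes of each list in WT (left) and Cripto KO (right), with 1 point per gene. The red bar is the median of a list, the black line the median of all genes and dashed lines 2-fold. The replication genes have the lowest median in both panels, -1.14 and -0.77, and none of them lies past 2-fold to the right.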

How the data were processed

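Per the methods of the study, TopHat2 2.0.13 was used by the authors to map the read pairs to mm9 (NCBIM37), and they deposited the counts per gene made with HTSeq 0.6.1p1 in intersection-nonempty mode on Ensembl gene models; the strand option is not given in the sources used here. A second deposited table holds a signal, the full quantile-normalized values that the authors computed for the 15462 genes kept by a filter at 1 cpm. In a check, 100% of those values lay within 1% of quantile normalization of the raw counts.

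Columns were matched to cultures by name. Gene names and transcript lengths came from GENCODE M1 (same build), which named 98.9% of genes. Log2 ratios used the normalized values with 0 replaced by 0.5. A gene was called at 2-fold. With 1 library per condition no p-value was computed and no additive fit was made, and the probability the study computed with NOISeq was not used because it rests on simulated replicates. Clopper-Pearson intervals (95%) came from counts scaled by library totals, with F/A Cripto KO counts divided by 2. The length correction subtracted a running median over 501 genes. Alternatives were library totals, TMM (edgeR 4.0.16), DESeq2 1.42.0 size factors, length corrections, an addition of 5 to each value, only genes averaging 50 or more raw counts, the unfiltered table, genes of protein-coding biotype alone, a 1.5-fold threshold and, added after seeing the data, correction by longest transcript and leaving out members with overlapping genes. Scripts ran in R 4.3.3 and Python 3.11.15 (pandas 2.3.3, scipy 1.17.1, numpy 2.4.6) and were tested on simulated data. All 44 members could be named; raw counts and ratios were given for those past 2-fold, for the 3 furthest in each direction, for MCM2-7 and for Cdt1 and Gmnn, and of other lists at most 4 genes past 2-fold per comparison in order of size. Beyond that rule, Mcm9, Mki67, Topbp1 and the neighbours of Pola2 were named after their values were seen. So were E2f3, E2f4, E2f7, E2f8, Pold3, Pold4, Pole3 and Pole4. A gene named for one transition has its value in the other beside it (E2f6, the fifth E2F list gene in WT). The members and lists were chosen with earlier results of these data known.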

Additional observations from a re-analysis of the deposited data

Results flagged for a closer look

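For 12 members the Cripto KO to WT ratio lay on opposite sides of 1 in F/A and in serum/LIF, with both counting intervals off 1. The share of all genes that meet this rule was not computed, so the count cannot be set against a background. A small ratio can meet the rule, as for Pola1 with a log2 ratio of 0.04 in serum/LIF. The values that follow equal the differences of the transitions treated above and are not separate results. The log2 ratio in F/A minus that in serum/LIF was 1.10 for Pold2, 0.82 for Cdc45, 0.79 for Rfc2, 0.73 for Gins1, 0.62 for Prim2, 0.54 for Mcm5, 0.52 for Mcm3, 0.47 for Rfc3, 0.47 for Lig1, 0.45 for Rrm1 and 0.43 for Mcm6. Each of these 11 was higher in Cripto KO than in WT in F/A and lower in serum/LIF. Pola1, the catalytic subunit of polymerase alpha, was the reverse, at -0.20. Rfc3 and Rrm1 also moved in opposite directions in the transitions, with the F/A value below the serum/LIF value in WT and above it in Cripto KO, with differences of 0.47 and 0.45. With 1 library per condition none of these differences was tested.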

How the results depend on the processing

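The members' median kept its sign in all 5 comparisons under every alternative run. Relative to genes of like length, the WT median was -0.93 (median transcript length) or -0.92 (longest), 10 of 44 members were called lower in Cripto KO (longest), beside 18.4% of all genes, and 0 were 2-fold higher in the difference of the transitions, beside 7.18% (median length) or 6.52% (longest) of all genes. At 1.5-fold 28 members were called lower in Cripto KO, 2 lower and 4 higher in F/A, 1 lower in serum/LIF and 10 higher in the difference of the transitions. Without the members that overlap another annotated gene or have a pseudogene copy, 29 were left, of which 19 were called lower in WT, 11 in Cripto KO and 1 (Pold2) in the difference, with medians of -1.15, -0.81 and 0.36. The highest level over the lowest in WT serum/LIF, per length of the longest transcript, was 2.47 for MCM2-7, 4.5 for ORC, 3.89 for GINS, 5.93 for RFC, 1.53 for RPA and 1.66 for polymerase alpha with primase. WT calls numbered 24 under each of 3 other scalings, and Cripto KO calls 14 (library totals), 12 (TMM) and 13 (DESeq2 size factors). Apart from the fewer members and the changed lengths or thresholds themselves, the cause of these shifts was not tested. Leaving out a replicate was not possible. No paired analysis was possible because the labels give no replicate numbers and each group compared is 1 library, and an additive fit with genotype as a block over both cultures was not run. Intervals cover counting error only, and with single cultures the spread between cultures is unknown.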
